A study of Mus musculus with 37 samples.

Results

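The comparison set 3 libraries of ribosome-bound RNA from spleen against 3 from the ceco-colonic lymph node, the node that drains the caecum and colon, across every gene of the deposited table. These are 6 of the 37 libraries of the series, chosen by the tissue named in their titles, with library totals also considered, and not by the level of any gene. The other libraries used here as background are 3 from the ileal node and 1 isotype control, an immunoprecipitation from a jejunal node with an antibody that does not recognise the tag. All mice carried, per the labels, CD169 Cre KI/KI and homozygous Rpl22HA alleles, and no treatment is listed, so by label the groups differ only in the organ of their titles. No age, sex or litter is given, no group lacks the Cre, and nothing says that replicates came from separate animals. The adjusted p-values therefore measure only the spread between these libraries, which may be technical. The spleen libraries carry the tissue label of lymph node, as all others do, and only their titles name the organ.

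In RiboTag mice, cells in which Cre has acted make Rpl22, a protein of the large ribosomal subunit, with a haemagglutinin tag, and an antibody to that tag pulls down their ribosomes and bound mRNA. CD169, encoded by Siglec1, is a sialic acid receptor of the macrophages that line lymph node sinuses and of the metallophilic macrophages at the splenic marginal zone. Once recombined, a cell and its progeny keep the tag, so tagged cells need not make CD169 when they are collected. The spleen filters blood. Its red pulp macrophages take up aged red cells and return their iron to the plasma, and in the mouse the red pulp also makes red cells and granulocytes throughout life. A lymph node filters lymph and takes in lymphocytes from blood through high endothelial venules, which the spleen does not have.

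The deposited libraries were shallow and unequal. Totals of estimated counts were 2434494, 9620012 and 1165831 in spleen replicates 1 to 3 and 4194412, 2374050 and 2799177 in the ceco-colonic replicates. Protein-coding genes held 56.1%, 77% and 43.6% of the spleen totals against 72.1% to 81.3% in the ceco-colonic node and 53.6% in the isotype control. Features that match ribosomal RNA (Gm19220, Rn18s-rs5 and the repeat-bearing Lars2) held 25.3%, 5.55% and 42.7% in spleen and 7.73% to 17.7% in the ceco-colonic node. Spleen replicate 3 stood apart, with the fewest counts and only 4496 genes at 10 or more counts, where the other 5 libraries had 6696 to 13533. Correlations of log2 CPM, the counts scaled to a library total of 1000000, across genes, which are not independent replicates, were 0.95 to 0.957 between ceco-colonic replicates and 0.799 to 0.905 between spleen replicates. Over a single library, 3 counts correspond to 4.83 CPM in spleen replicate 3 and to 0.326 CPM in spleen replicate 2, so genes near those levels could not be ranked. On plain totals Ddx3y, a gene of the Y chromosome, was at 62.7 CPM in ceco-colonic replicate 1 and at 0.714 to 4.29 CPM in the other 5 libraries, and Xist, of the inactive X, was at 6 to 52.2 CPM in all 6. Without ceco-colonic replicate 1, 2682 genes were called, 2540 of them among the 4532 described next. The number was 2504 and 2946 without ceco-colonic replicates 2 and 3. It was 2699, 4913 and 4899 without spleen replicates 1, 2 and 3. The part of sex in the other differences was not tested.

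Of 9547 genes with enough counts to test, 4532 (47.5%) differed at an adjusted p under 0.05 in edgeR's quasi-likelihood test. Spleen was higher for 2372 (24.8%) and lower for 2160 (22.6%), and the 2 groups did not overlap for 5892 genes (61.7%). The median log2 fold change over all genes tested was 0.06. A gene seen in 1 group only can pass the count filter only through that group, so counts over the tested members of a list describe those members and not the whole list. The split between directions rested on the scaling. With TMM factors, 52.3% of the called genes were higher in spleen. With library totals alone, 4105 genes were called, 666 of them higher (6.98% of those tested) and 3439 lower (36%), so that 16.2% of calls were higher, and the median of all genes moved to -0.90. All fold changes below are log2 values, spleen minus ceco-colonic node, on the TMM scale with their standard error, and each reads relative to that median.

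The 2 directions differed in kind of gene and in their level in the isotype control. Spleen was higher for 204 of 314 tested pseudogenes (65%) and for 348 of 629 long noncoding genes (55.3%), but for 1476 of 8009 protein-coding genes (18.4%), of which 2083 were lower (26%). The lean of protein-coding genes rested on the features used for scaling. In a fit on protein-coding features alone, 1884 of 8098 were higher (23.3%) and 1547 lower (19.1%). On the scale of plain library totals, the isotype control lay above all 3 ceco-colonic libraries for 1776 of the 2372 genes that were higher in spleen (74.9%). It lay below all 3 for 2144 of the 2160 genes that were lower (99.3%). Over all tested genes these shares were 25.7% above and 60.6% below. The isotype control is 1 library from another node, and its part in the calls was not tested, so its level is given beside many of the genes that follow. The series holds no isotype control from spleen, so a low isotype level does not gauge untagged RNA in the spleen libraries. Isotype levels are CPM of its plain total, and each was set above or below the node on plain totals. The printed CPM of the other libraries are plain values divided by TMM factors of 1.33 to 1.56 in the node and 0.546 to 0.972 in spleen, so they do not compare directly with an isotype level.

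**Figure D1:**
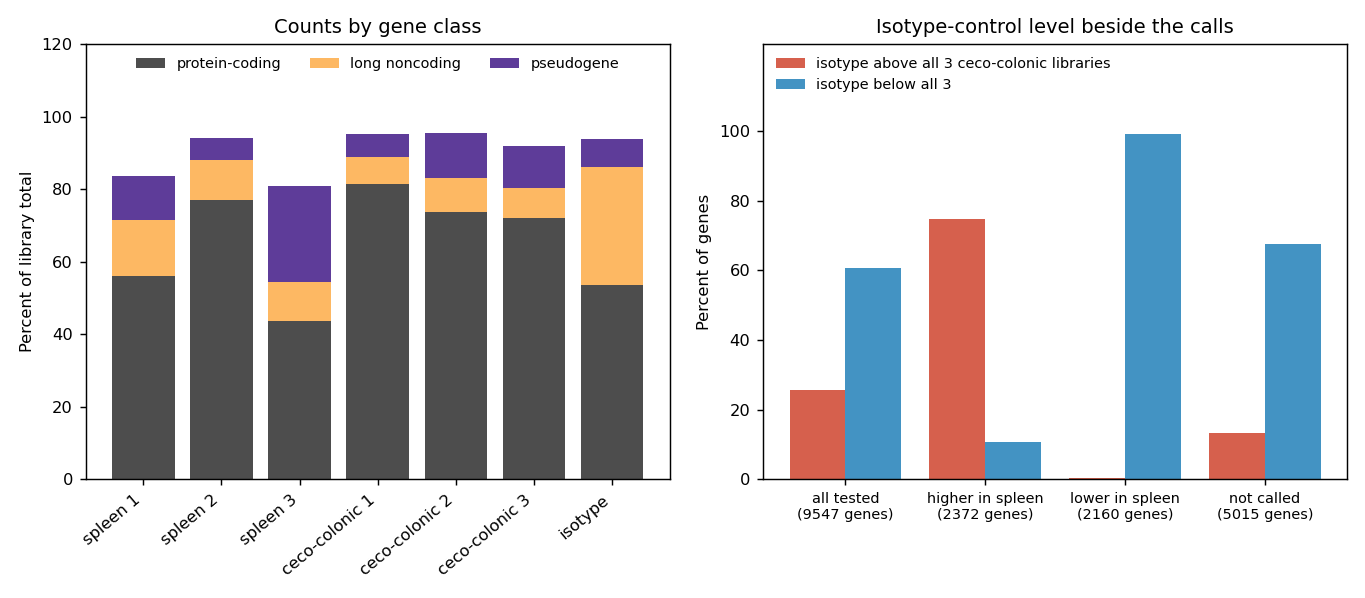
Left, percent of each library's total held by protein-coding, long noncoding and pseudogene features (stacked bars; the rest of each total is in other or unmatched features) for the 3 spleen, 3 ceco-colonic and 1 isotype-control libraries; right, percent of genes whose isotype-control CPM lay above or below all 3 ceco-colonic libraries, by call. Protein-coding features held 43.6% of spleen replicate 3, and the isotype control lay above the node for 74.9% of genes higher in spleen and for 0.324% of genes lower in spleen.

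Red cell genes were higher in spleen by wide margins. Of 32 erythroid genes in the table, 15 had enough counts to test. Of those tested, 11 were higher in spleen (73.3% against 24.8% of all genes) and none lower. Their median log2 fold change was 5.85, also with the 2 members that had no count in the node set at their lower bounds. Fold changes of the globin genes ran from 5.85 to 7.55, and Add2 had no count in any ceco-colonic library. The promoters of 3 of these genes are shown because their members moved together and the erythroid factor GATA1 is known to act through the sequence GATA. Each is the 250 bases before the RefSeq transcription start (GRCm38.p6), in the direction of the gene, with matches on either strand to AGATAA and, as further searches, to TGATAA, next also to AGATAG and in addition to TGATAG, shown in capitals (matches on the other strand read as their reverse complement). Alas2 lies at chrX:150547167-150547416 (+), Hba-a2 at chr11:32296242-32296491 (+) and Add2 at chr6:86028431-86028680 (+).
Alas2: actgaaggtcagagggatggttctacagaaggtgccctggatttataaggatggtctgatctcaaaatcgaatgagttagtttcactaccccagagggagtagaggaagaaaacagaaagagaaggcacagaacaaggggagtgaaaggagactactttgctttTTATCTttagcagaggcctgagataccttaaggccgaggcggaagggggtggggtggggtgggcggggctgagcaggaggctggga
Hba-a2: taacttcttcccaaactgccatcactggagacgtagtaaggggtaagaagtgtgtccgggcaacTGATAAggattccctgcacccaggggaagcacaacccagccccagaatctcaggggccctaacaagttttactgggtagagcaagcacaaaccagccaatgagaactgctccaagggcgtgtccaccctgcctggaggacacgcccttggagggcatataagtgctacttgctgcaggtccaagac
Add2: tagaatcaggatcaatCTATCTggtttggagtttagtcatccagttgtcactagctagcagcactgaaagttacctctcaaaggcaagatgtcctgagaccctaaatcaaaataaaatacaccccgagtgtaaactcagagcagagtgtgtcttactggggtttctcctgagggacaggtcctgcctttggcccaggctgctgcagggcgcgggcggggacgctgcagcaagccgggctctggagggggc
RefSeq windows were found for 8 of the 11 called erythroid genes, and 5 held a match (Hba-a1, Hba-a2, Hbb-bs, Alas2 and Add2), while Hbb-bt, Gata1 and Tfrc held none. The windows searched also took in the 50 bases after the start. By the same search, 33% of 27025 genes had a match in at least 1 window. A match describes these letters only.

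Alpha globin carried most of the red cell signal. Hba-a2 was at 8010, 35300 and 15000 CPM in spleen replicates 1 to 3 and at 122, 83 and 106 CPM in the ceco-colonic replicates, a log2 fold change of 7.55 ± 0.64 (adjusted p = 0.000278). All 3 spleen libraries lay far above all 3 node libraries, with replicate 2 the highest, and the isotype control was at 3.6 CPM. That control comes from a jejunal node, so its level of red cell genes cannot gauge untagged RNA in spleen. Hba-a1, its near-identical copy, behaved alike at 1630, 10200 and 3320 against 34.9, 21.4 and 27.6 CPM (7.50 ± 0.74), but reads of the 2 copies cannot be separated with certainty. The beta globin gene Hbb-bt was at 170, 1560 and 464 CPM in spleen and 4.19, 4.4 and 3.28 CPM in the node (7.52 ± 0.84, adjusted p = 0.000682). Hbb-bs was at 108, 1860 and 582 against 20.2, 12.9 and 10.9 CPM (5.85 ± 0.91). The 4 globin genes made up 0.608%, 4.69% and 1.03% of the spleen totals and 0.0175% to 0.0279% of the ceco-colonic ones.

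Genes of immature red cells followed. Alas2, the erythroid enzyme that begins haem synthesis, was at 16.7, 67.4 and 30.6 CPM in spleen and 1.09, 0.293 and 0 CPM in the node (6.09 ± 0.81, adjusted p = 0.000926). Every spleen library was above every node library, and the jejunal isotype control held none. Add2, the beta subunit of the membrane skeleton protein adducin, was at 10, 69.1 and 25.8 CPM against 0 in all 3 node libraries, at least 157-fold higher against 3 counts over the group (0.222 CPM; adjusted p = 0.00104). Tspo2, a translocator protein of maturing red cells, was at 19.4, 123 and 35.4 CPM and likewise without a count in the node, at least 267-fold higher. Dmtn, which encodes the actin-binding protein dematin, was at 80.3, 161 and 226 CPM against 3.11, 1.47 and 1.64 CPM (6.15 ± 0.57). The transcription factor Gata1 was at 23.4, 26.9 and 41.9 CPM against 3.26, 2.35 and 4.1 CPM (3.20 ± 0.45, adjusted p = 0.00103), with 7.2 CPM in the isotype control, above the node on plain totals. Tspo2 was not in the erythroid list and is given here as one of the largest differences overall.

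Among the called members the smallest changes were those of Tfrc (2.25 ± 0.60), the transferrin receptor, and Fech (1.86), the last enzyme of haem synthesis. Tfrc fell short of the threshold with library totals alone and without ceco-colonic replicate 1 or 2 or spleen replicate 2. Bpgm (1.08), Slc25a37 (0.79), Epor (1.65) and Mkrn1 (-0.83) did not pass. The 17 members without enough counts to test included Klf1 and Slc4a1, which were seen mainly in the deepest spleen library, with 87 and 72 estimated counts there against 0 to 6 in the other 2 spleen libraries and 0 or 1 in each node library. With no filter on low counts, 24 of 32 members were called higher and none lower. The number called higher was 9 with library totals alone and 10 without spleen replicate 2, where 1 member was lower, and it was 15 to 18 when any other library was left out. Against the ileal node, in a fit that uses the same spleen libraries, 16 of 20 tested members were higher and none lower, where 27.6% of all 13551 genes tested were higher. In these pull-downs, more cells of a type, more RNA per cell and more RNA from untagged cells cannot be told apart.

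**Figure D2:**
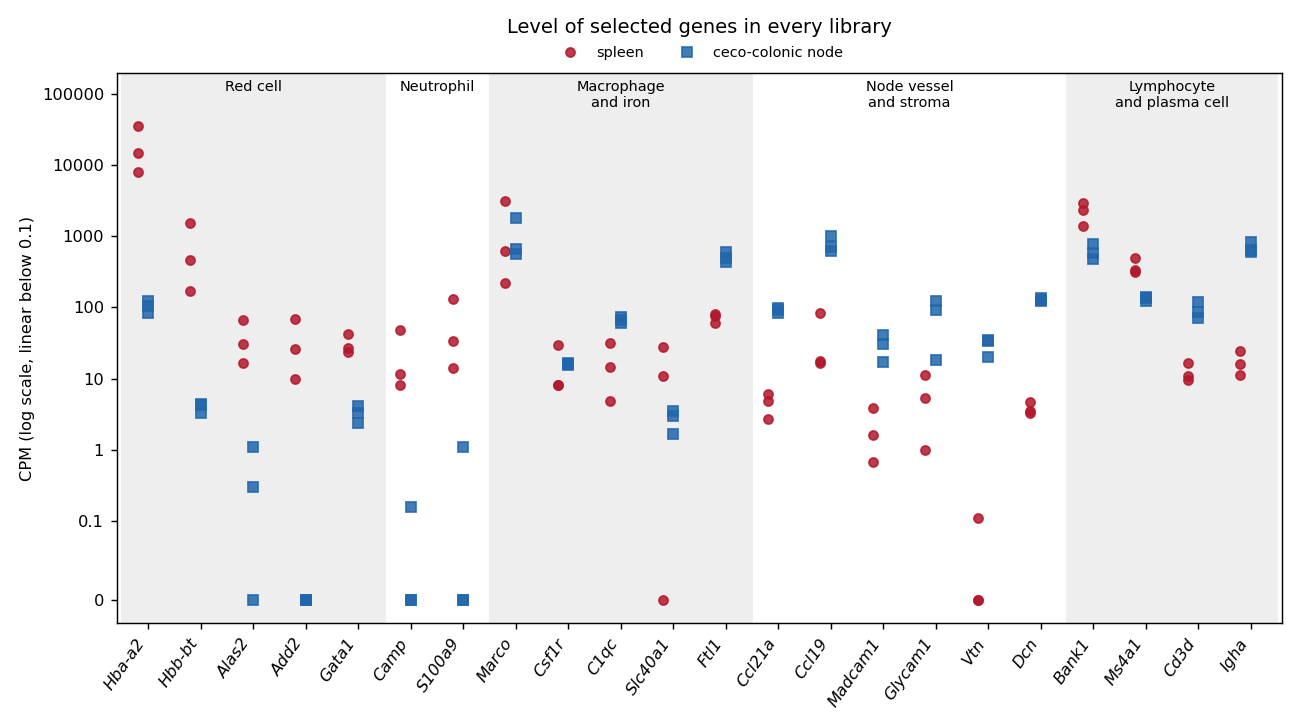
CPM of 22 genes in each of the 3 spleen libraries (circles) and the 3 ceco-colonic libraries (squares), scaled with TMM factors, on a log axis that is linear below 0.1. Spleen and node do not overlap for the red cell and neutrophil genes, overlap for Marco, Csf1r and Slc40a1, and lie apart in the other direction for the vessel, stroma, T cell and IgA genes.

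Of 23 neutrophil genes only 3 had enough counts to test, and Camp and S100a9 were higher in spleen. Both passed the count filter only through the spleen libraries, so their number says nothing of the list. Camp, the cathelicidin of neutrophil secondary granules, was at 11.4, 47.7 and 8.06 CPM in spleen, with 1 count in all ceco-colonic libraries together. The pooled ratio was 550, with a 95% counting interval from 98.2 to 21800, and the adjusted p was 0.000926. S100a9, a subunit of the alarmin calprotectin, was at 14.1, 132 and 33.8 CPM against 1.09, 0 and 0 CPM (6.95 ± 1.09, adjusted p = 0.00133). All 3 spleen libraries were above the node for both, with replicate 2 the highest. The isotype control was at 0 and 0.4 CPM, but as a jejunal node library it cannot gauge untagged RNA in spleen. The third member tested, the receptor Cxcr2, did not pass (-0.18 ± 0.56) and overlapped.

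Some genes of dividing cells were higher in spleen. Of 25 tested cell cycle genes, 8 were higher (32% against 24.8% of all genes) and 2 lower, with a median of 0.56 that turned to -0.23 with library totals alone. Cenpf, a kinetochore protein, was at 200, 452 and 387 CPM in spleen and 60.6, 29 and 28.9 CPM in the node (3.13 ± 0.46, adjusted p = 0.00115). Top2a, the DNA topoisomerase of dividing cells, was at 434, 840 and 472 against 140, 95.9 and 84.9 CPM (2.45 ± 0.39, adjusted p = 0.00139). Rrm1, a ribonucleotide reductase subunit, was at 73.7, 136 and 90.2 against 21.6, 15 and 21 CPM (2.39 ± 0.39). All 3 were separated between the groups and were highest in spleen replicate 2. The isotype control, at 52.6, 68.6 and 12 CPM, was, on plain totals, within the node's range for Cenpf and below it for Top2a and Rrm1. Cenpe (2.82), Tpx2 (2.98), E2f2 (2.51), Tyms (2.50) and Cdk1 (1.87) were also higher. The replicative helicase subunits Mcm3 (-1.48) and Mcm4 (-2.51) were lower. With library totals alone, 5 members were higher and 2 lower, and Top2a did not pass.

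General macrophage genes were low or did not differ between spleen and the ceco-colonic node. Siglec1 itself, whose locus drives the Cre, was at 0, 0.326 and 0 CPM in spleen and 0, 0.88 and 0.273 CPM in the node, that is 3 and 4 counts per group, and could not be tested. Both copies of the locus carry the knock-in (KI/KI), and the labels do not say whether it still makes Siglec1 mRNA. The general macrophage genes Cd68 and Adgre1 had 6 and 14 counts over the spleen libraries and 18 and 3 over the node libraries, also too few. For Adgre1 the pooled spleen-to-node ratio was 5.57, with a 95% interval from 1.55 to 30.2 that covers counting error only. Its counts in spleen replicates 1 to 3 were 9, 5 and 0. Csf1r, through which CSF1 keeps macrophages alive, was at 30.1, 8.04 and 8.06 CPM against 15.5, 16.1 and 16.7 CPM (-0.06 ± 0.53, adjusted p = 0.931). Marco, a scavenger receptor of marginal zone and medullary macrophages, was at 3110, 633 and 221 CPM in spleen and 1790, 669 and 570 CPM in the node (0.39 ± 0.78, adjusted p = 0.692). The groups overlapped for both, and the spread within spleen exceeded any difference between the groups. The direction for Marco turned with library totals alone (-0.76) and without spleen replicate 1 (-1.29). Its 17 CPM in the isotype control lay below all 6 libraries on plain totals. The tagged gene, Rpl22, was at 20.8, 50.8 and 29 CPM in spleen and 76.9, 95.3 and 103 CPM in the node (-1.41 ± 0.41, adjusted p = 0.0174). All groups carry the tagged allele, so this gene checks no label. Leaving out ceco-colonic replicate 2 or 3 or spleen replicate 1 ended that call.

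Red pulp macrophage genes did not separate spleen from the ceco-colonic node as a group. Of 15 tested members, 4 were higher in spleen (26.7% against 24.8% of all genes), 1 was lower and the median was 0.51. With library totals alone the split turned to 1 higher and 3 lower, with a median of -0.59. Of the defining genes, the transcription factor Spic (0.05), the adhesion molecule Vcam1 (-0.22) and the haem-degrading enzyme Hmox1 (0.69) did not pass. Slc40a1, the iron exporter ferroportin, was at 28.1, 11 and 0 CPM in spleen and 2.95, 3.52 and 1.64 CPM in the node (2.34 ± 0.83, adjusted p = 0.0394). Spleen replicate 3 held no count of it, so the groups overlapped, and the call ended when any library but spleen replicate 3 was left out. Epb41l3, a membrane skeleton protein, was at 106, 43.2 and 61.2 CPM against 6.06, 6.16 and 5.46 CPM (3.56 ± 0.45, adjusted p = 0.000926), with 15.8 CPM in the isotype control, above the node on plain totals. Igf1, an insulin-like growth factor, was higher (2.03 ± 0.42), but not with library totals alone, and its isotype level of 19.8 CPM lay above the node's plain values of 9.29 to 13.9 CPM. Kcna2, a potassium channel, was higher at 1.84 ± 0.44 and also lost its call with library totals. Its 245 CPM in the isotype control lay above the plain values of spleen (115 to 207 CPM) and node (89.7 to 112 CPM). Timd4, a receptor for phosphatidylserine on dying cells, was at 18.7, 3.8 and 1.61 CPM in spleen and 25.2, 40.5 and 29.8 CPM in the node (-1.95 ± 0.65). The defining red pulp genes thus did not set the libraries titled spleen apart from the node. Over the node libraries Spic and Hmox1 had 173 and 215 counts.

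Genes of sinus and marginal zone macrophages were lower in spleen at about the share of all genes. Of 12 tested, 3 were lower (25% against 22.6%) and none higher, while the fit with the replicate block called 2 higher and 4 lower. C1qc, a chain of the complement recognition protein C1q, was at 31.5, 14.6 and 4.83 CPM in spleen and 73.4, 65.7 and 61.4 CPM in the node (-1.92 ± 0.51, adjusted p = 0.0122). C1qb was at 3.35, 2.61 and 3.22 against 15.5, 12.3 and 10.4 CPM (-2.11 ± 0.50). Cd5l (1.51 ± 0.64), Fcna (1.61 ± 0.72) and Cd209b (-1.74 ± 0.83) did not pass, and their groups overlapped. Of 20 phagocytic and scavenger receptor genes, 2 were higher (10%) and 4 lower (20%), below both shares of all genes. Fcgr2b, the inhibitory Fc receptor, was at 32.8, 12.2 and 40.3 CPM against 3.42, 4.4 and 4.1 CPM (2.78 ± 0.53). Its 28.8 CPM in the isotype control lay above the plain values of spleen (11.6 to 21.4 CPM) and node (5.25 to 6.32 CPM). Mfge8, a bridge between dying cells and phagocytes, was at 7.37, 32.7 and 4.83 CPM against 112, 122 and 152 CPM (-2.91 ± 0.60). Sirpa, the receptor for CD47, was at 38.2, 34.7 and 19.3 CPM against 102, 155 and 108 CPM (-1.95 ± 0.39).

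The iron storage gene Ftl1 was lower in spleen. Ftl1, the ferritin light chain, was at 81, 76.1 and 61.2 CPM in spleen and 430, 609 and 503 CPM in the node (-2.81 ± 0.34, adjusted p = 0.000878). No library of one group came near the other. On plain totals the isotype level of 34.4 CPM lay within spleen's range of 32.6 to 72.9 CPM and below the node (658 to 875 CPM). Pcbp1, which delivers iron to ferritin, was at 4.02, 4.13 and 9.67 against 30, 27 and 22.7 CPM (-2.36 ± 0.47). Over the 18 tested genes of haem and iron recycling, 2 were higher (Slc40a1 and Tfrc), 2 were lower (11.1% each, under the shares of all genes), and the median was 0.14. With library totals alone none was higher and 5 were lower, with a median of -0.77, and none was higher without ceco-colonic replicate 1 or 2. The haptoglobin gene Hp (-1.37 ± 0.66) and the iron importer Slc11a2 (-1.38 ± 0.60) did not pass.

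Lysosomal genes were lower in spleen. Of 35 tested, 19 were lower (54.3% against 22.6% of all genes) and 1 was higher, with a median of -1.40. Lamp1, a membrane protein of lysosomes, was at 12.1, 11.5 and 8.06 CPM in spleen and 78.6, 108 and 84.9 CPM in the node (-3.05 ± 0.39, adjusted p = 0.000926). Cd63 was at 59.6, 45.9 and 19.3 against 388, 508 and 374 CPM (-3.31 ± 0.44). The groups lay well apart for both genes. The proteases Ctsl (-3.45), Ctsz (-2.95) and Ctss (-2.87) were also lower, and Lgmn (1.02) was the member that was higher, though not with library totals alone. All 19 lower genes had isotype-control levels below every ceco-colonic library, as had 99.3% of all genes lower in spleen. The number lower was 11 to 13 when 1 ceco-colonic library was left out and 23 with library totals alone. Of the 22 tested genes of macrophage lipid handling, 6 were lower (27.3%, near the 22.6% of all genes) and none higher. Apoe, the lipid carrier apolipoprotein E, was at 133, 98.4 and 75.7 CPM against 620, 990 and 782 CPM (-2.96 ± 0.37), and Plin2, a lipid droplet coat protein, fell by 2.94 on the log2 scale.

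Antigen presentation genes were lower in spleen as well. Of 16 tested genes of the MHC class II pathway, 8 were lower (50% against 22.6% of all genes) and 2 higher, with a median of -1.32. Library totals gave 12 lower and none higher, and the replicate block 7 lower and none higher. H2-Ab1, the beta chain of I-A, was at 13.4, 29.9 and 33.8 CPM in spleen and 291, 207 and 214 CPM in the node (-3.22 ± 0.43, adjusted p = 0.000926). H2-Aa, its alpha chain partner, was at 16.1, 14.4 and 19.3 against 110, 96.5 and 111 CPM (-2.70 ± 0.36). The isotype control, at 10.2 and 14.4 CPM, lay far below every node library for both on plain totals. Against spleen on that scale, it lay within the range for H2-Ab1 (8.22 to 28.6 CPM) and above it for H2-Aa (9.86 to 13.8 CPM). Cd40 (-3.03) and Cd74 (-1.32) were lower, and the costimulatory gene Cd86 (1.67) was higher. Among 15 tested dendritic cell genes, 10 were lower (66.7% against 22.6%) and 1 was higher, and 5 or 6 were lower when any ceco-colonic library or spleen replicate 1 was left out. Fscn1, the actin-bundling protein of mature dendritic cells, was at 7.37, 0.977 and 1.61 CPM against 32.5, 49.9 and 49.7 CPM (-3.93 ± 0.70). Ccl22, a chemokine of mature dendritic cells, had 2 counts over the spleen libraries and 5.43, 7.04 and 7.92 CPM in the node. The homing receptor Ccr7 was lower by 2.85 ± 0.71 in log2 units, from 6.67 ± 1.86 CPM (SD, n = 3) in the node to 0.899 ± 0.822 CPM (SD, n = 3) in spleen. Tcf4, a factor of plasmacytoid cells and of B cells, was higher (1.46 ± 0.34), but not with library totals alone. Its isotype level of 362 CPM lay above the plain values of all spleen and node libraries (158 to 323 and 185 to 223 CPM).

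Complement genes were lower in spleen. Of 17 tested, 9 were lower (52.9% against 22.6%) and none higher, with a median of -1.27, and the fit with the replicate block called 1 higher and 9 lower. C3, the central component, was at 53.6, 55.6 and 20.9 CPM in spleen and 381, 603 and 627 CPM in the node (-3.59 ± 0.45, adjusted p = 0.000926). Factor B, Cfb, was at 10, 15.5 and 3.22 against 131, 253 and 180 CPM (-4.11 ± 0.52). Clu, the complement regulator clusterin, was at 6.7, 11.6 and 4.83 against 93.3, 140 and 149 CPM (-3.89 ± 0.45). C4b (-2.75 ± 0.39) and C1ra (-3.29 ± 0.55) were lower too. Every one of the 9 had an isotype level below all 3 ceco-colonic libraries, as had 99.3% of all genes lower in spleen. Against the ileal node, 15 of 21 tested members were lower and 1 was higher, where 31.3% of all genes were lower.

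**Figure D3:**
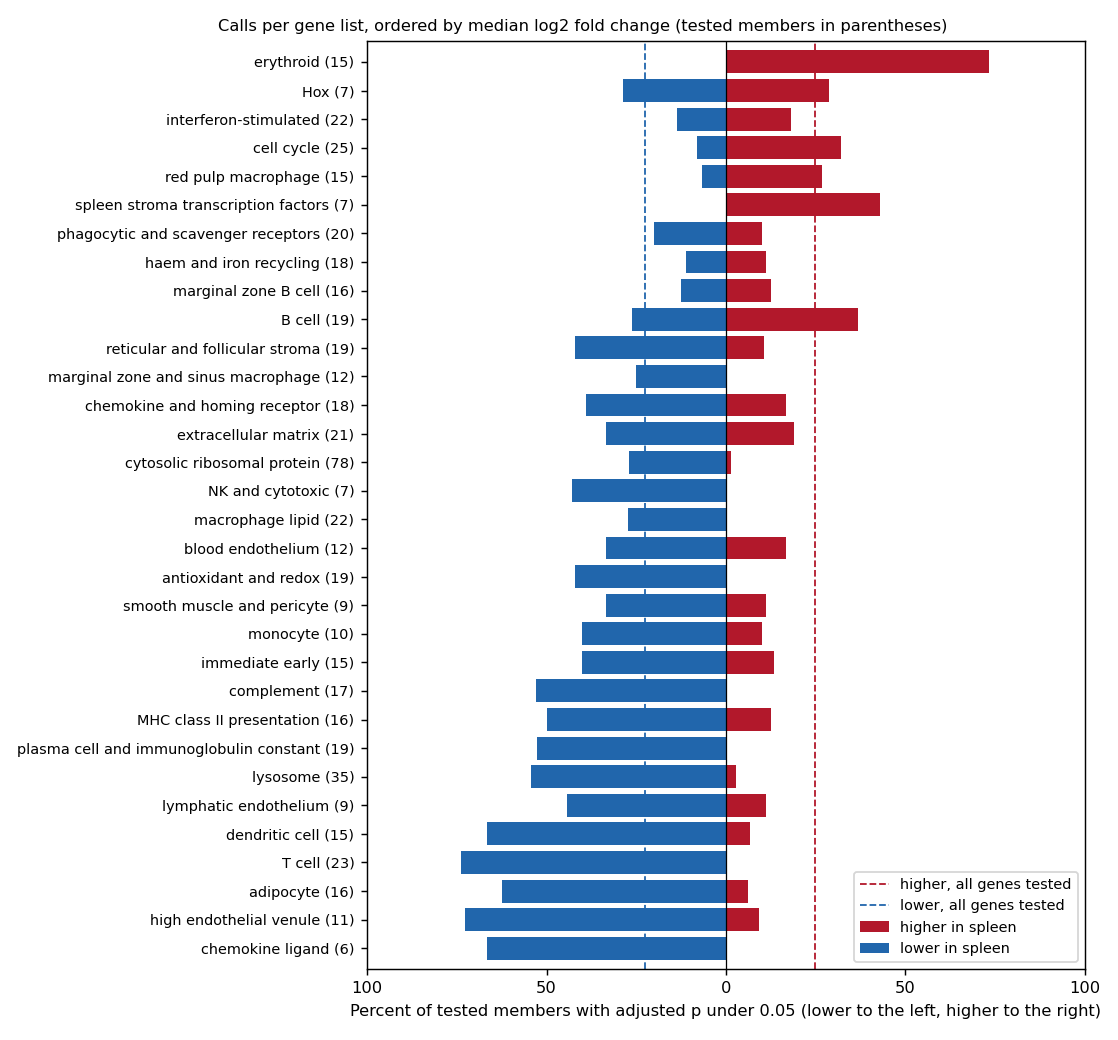
Percent of tested members of the 32 gene lists with 5 or more tested members with an adjusted p under 0.05, higher in spleen to the right and lower to the left, ordered by the median log2 fold change; dashed lines mark the shares over all genes tested, 24.8% and 22.6%. The erythroid list reaches furthest to the right, and the T cell and high endothelial venule lists furthest to the left.

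Genes of high endothelial venules were lower in spleen. Of 11 tested high endothelial venule genes, 8 were lower (72.7% against 22.6% of all genes) and 1 was higher, with a median of -3.03. Glycam1, a sulphated ligand for L-selectin on these venules, was at 5.36, 0.977 and 11.3 CPM in spleen and 18.2, 91.2 and 124 CPM in the node (-4.26 ± 0.94, adjusted p = 0.00538). Its lowest node library, replicate 1, was still above the highest spleen library. Madcam1, the mucosal addressin that binds the integrin of gut-homing lymphocytes, was at 0.67, 3.8 and 1.61 against 17.2, 31.1 and 41 CPM (-3.49 ± 0.60, adjusted p = 0.00173). Enpp2, which encodes autotaxin, was at 2.01, 2.28 and 0 against 22.5, 31.1 and 32.5 CPM (-3.89 ± 0.55). Isotype levels were 6.4, 0.2 and 8.39 CPM. On plain totals those of Glycam1 and Enpp2 lay above spleen (0.936 to 6 and 0 to 2.18 CPM). That of Madcam1 lay below spleen (0.411 to 3.64 CPM). Il1rl1 (2.20), the receptor for interleukin-33 and also known from other cells, was the member that was higher, though not with library totals alone. The defining enzymes Chst4 and Fut7 had 18 and 12 counts over the 3 node libraries and 2 and 1 over the spleen libraries, too few to test. Of 9 tested lymphatic endothelial genes, 4 were lower (44.4% against 22.6%) and 1 higher. Prox1, the lymphatic fate factor, was at 3.35, 1.85 and 0 against 8.23, 5.28 and 3.82 CPM and did not pass (-1.54 ± 0.67). Lyve1 and Flt4 had too few counts.

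The chemokines that draw cells to the T cell zone also separated the organs. Ccl21a was at 6.03, 2.71 and 4.83 CPM in spleen and 82.8, 92.7 and 97.5 CPM in the node (-4.48 ± 0.46, adjusted p = 0.000607). Ccl19 was at 16.7, 84.7 and 17.7 against 698, 626 and 1020 CPM (-4.21 ± 0.63, adjusted p = 0.00116). Both bind Ccr7, and neither gene overlapped between the groups. On plain totals the isotype level of Ccl21a, 6.4 CPM, lay above spleen (2.57 to 3.7 CPM) and below the node (127 to 133 CPM). That of Ccl19, 9.99 CPM, lay within spleen's range of 9.44 to 81.1 CPM. Near-identical copies of Ccl21a exist, so its counts may be shared among them. Cxcl16, the ligand of Cxcr6, was at 5.36, 5.1 and 3.22 against 53.7, 59.8 and 68.8 CPM (-3.64 ± 0.41). Of 6 tested chemokine ligands 4 were lower (66.7% against 22.6%) and none higher, while up to 2 were higher when 1 library was left out. Cxcl9 (1.16 ± 0.53) and Cxcl12 (0.40 ± 0.38) overlapped and did not pass. Among 18 tested chemokine and homing receptors, 7 were lower (38.9% against 22.6% of all genes) and 3 higher (16.7% against 24.8%). With library totals alone 9 were lower and none higher. Itgb7, the integrin subunit that pairs with Madcam1, was at 12.1, 25.4 and 4.83 CPM against 117, 121 and 160 CPM (-3.08 ± 0.51). Cxcr4 (-2.10 ± 0.49), Cxcr6 (-2.77 ± 0.58) and S1pr1 (-1.66 ± 0.60) were also lower. Ccr4 (2.49) and Itgal (2.28) were among the 3 that were higher. All 3 had isotype levels above all node libraries on plain totals, as had 74.9% of all genes higher in spleen. Those of Ccr4 (17.8 CPM) and Itgal (70.8 CPM) also lay above the plain values of spleen, at 6.65 to 13.7 and 13.7 to 66.1 CPM.

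Stroma and matrix genes held some of the largest falls. Vtn, the adhesion protein vitronectin, was at 20.3, 33.4 and 34.4 CPM in the node and had 1 count over all spleen libraries, a pooled spleen-to-node ratio of 0.00322 with a counting interval from 8.12e-05 to 0.018 (adjusted p = 0.000372). Dcn, the collagen-binding proteoglycan decorin, was at 4.69, 3.47 and 3.22 CPM in spleen and 122, 138 and 128 CPM in the node (-5.08 ± 0.42, adjusted p = 0.000278). Mgp, the matrix Gla protein, was at 0.67, 0.977 and 3.22 against 42.7, 34.3 and 31.4 CPM (-4.94 ± 0.56). All 3 genes separated the groups, and the isotype control was at 0.4, 9.39 and 1.8 CPM. On plain totals it lay below the node and above spleen for all 3, with spleen at 0 to 0.104, 1.72 to 3.33 and 0.411 to 1.72 CPM. Of 21 tested matrix genes 7 were lower (33.3% against 22.6% of all genes) and 4 higher (19% against 24.8%). With library totals alone 10 were lower and 1 higher, Sparcl1. The higher ones were Col1a1 (1.39), Col1a2 (88 against 21.8 CPM), Sparcl1 (2.56 ± 0.44) and the protease inhibitor Timp3 (1.46). Sparcl1, a secreted matricellular protein, was at 64.9, 60.7 and 116 against 8.54, 16.1 and 15.8 CPM, with 9.19 CPM in the isotype control, below the node on plain totals. Col1a2 was at 80.7 CPM in the isotype control, above the plain values of spleen (54 to 61.2 CPM) and node (27.5 to 33.9 CPM), and Timp3 was at 172 CPM there, also above both. Rgs5, a pericyte gene, was at 16, 16.4 and 12.3 CPM in the node against 3 counts over the spleen libraries, and the muscle filament gene Des was lower by 2.69 ± 0.45 in log2 units. Ptgis, prostacyclin synthase, was at 59.6, 14 and 19.3 CPM in spleen and 6.52, 2.93 and 3.82 CPM in the node (2.76 ± 0.61, adjusted p = 0.00524) with no isotype count, but it did not pass with library totals alone.

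Genes of fat cells, which surround the gut nodes, were lower in spleen. Of 16 tested adipocyte genes, 10 were lower (62.5% against 22.6%) and 1 was higher, with a median of -2.13. Fabp4, the fatty acid binding protein of fat cells that endothelium and macrophages also express, was at 20.8, 14 and 85.4 CPM in spleen and between 830 and 1590 CPM in the node (-4.94 ± 0.69, adjusted p = 0.000954). Cfd, the fat-derived complement factor D, was at 9.37, 3.04 and 30.6 against 220, 739 and 281 CPM (-5.16 ± 0.84). Both were highest in replicate 2 of the node and replicate 3 of the spleen. Retn (-3.80 ± 0.59) and Cidec (-5.05 ± 1.09) were lower too. Adipoq, which defines the cell type, had 43 counts over the node libraries and 1 over the spleen libraries. How far fat at the node moved the other differences was not tested.

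Single Hox genes differed in both directions. Hoxc8 was at 1.34, 1.41 and 4.83 CPM in spleen and 40.7, 62.8 and 67.2 CPM in the node (-4.94 ± 0.56, adjusted p = 0.000682). Its 67.4 CPM in the jejunal isotype control lay within the node's plain values of 62.5 to 90.1 CPM and above those of spleen (0.822 to 2.57 CPM). Hoxb7 was lower (-3.62 ± 0.79) with 4 counts over the spleen libraries and 68 over the node libraries. Hoxd11 was at 18.7, 11 and 33.8 against 2.95, 2.64 and 2.18 CPM (2.92 ± 0.55, adjusted p = 0.00258), with 14.2 CPM in the isotype control, above the node on plain totals. Of 7 tested Hox genes, 2 were higher and 2 lower (28.6% each), near the shares of all genes. Among 7 tested factors of splenic stroma, 3 were higher (42.9% against 24.8% of all genes) and none lower. With library totals alone none was higher and 2 were lower. Nkx2-3, which is needed to form the spleen and also acts in gut vessels, was at 40.2, 39.5 and 38.7 CPM in spleen and 16.5, 19.9 and 17.5 CPM in the node (1.14 ± 0.34, adjusted p = 0.0207). The groups were tight and apart and the isotype control had none, yet the call ended with library totals alone, where the log2 fold change was 0.13, and when any library but spleen replicate 3 was left out. Tbx18 was higher at 1.88 ± 0.43, with an isotype level of 34 CPM above the plain values of spleen (20.1 to 30.9 CPM) and node (10.4 to 18.1 CPM), and Meis2 (2.44 ± 0.82) overlapped between the groups. Tlx1 and Nkx2-5, which specify the spleen in the embryo, had 5 counts each in spleen replicate 2 and none in any other of the 6 libraries.

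T cell genes were lower in spleen. Of 23 tested, 17 were lower (73.9% against 22.6% of all genes) and none higher, with a median of -1.91. Cd3d was at 10.7, 16.8 and 9.67 CPM in spleen and 70.6, 85.9 and 120 CPM in the node (-2.82 ± 0.41, adjusted p = 0.00109). Cd3g, another chain of the T cell receptor complex, was at 2.68, 4.34 and 9.67 against 41.6, 40.5 and 55.2 CPM (-3.24 ± 0.49). Cd8b1, of cytotoxic T cells, was at 2.01, 1.09 and 1.61 against 11.2, 12.6 and 18.8 CPM (-3.32 ± 0.59). The groups were apart for all 3, and their isotype levels were 19.4, 18.2 and 3.4 CPM, below the node on plain totals. These levels lay above the plain values of spleen, at 5.15 to 16.1, 1.64 to 5.15 and 0.858 to 1.23 CPM. Bcl11b, a T lineage factor, was lower by 1.91 ± 0.38 in log2 units. Its 406 CPM in the isotype control lay below the node's plain values of 441 to 527 CPM and above those of spleen (31.7 to 79.3 CPM). Cd4 (0.47), Lck (0.45) and Il7r (0.17) did not pass. The number lower stayed between 12 and 18 when any 1 library was left out, with none higher. Of 7 tested NK and cytotoxic genes, 3 were lower (42.9% against 22.6% of all genes), led by Nkg7 (-3.92 ± 0.67). None was higher, while 2 were higher without spleen replicate 3.

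B cell genes moved both ways. Of 19 tested, 7 were higher (36.8% against 24.8% of all genes) and 5 lower (26.3% against 22.6%), with a median of -0.27. Bank1, a B cell signalling adaptor, was at 2960, 1380 and 2330 CPM in spleen and 488, 593 and 778 CPM in the node (1.84 ± 0.37, adjusted p = 0.00362), with 3430 CPM in the isotype control, above all 6 libraries on plain totals. Pax5, the B lineage factor, was at 1750, 1490 and 1290 against 807, 378 and 447 CPM (1.47 ± 0.37), with 2250 CPM in the isotype control, also above all 6. Ms4a1, which encodes CD20, was at 494, 333 and 316 against 124, 139 and 136 CPM (1.52 ± 0.33), with 174 CPM in the isotype control, below the node's plain values of 178 to 200 CPM. Each of these 3 lay higher in every spleen library than in any node library on the TMM scale. Fcmr, an Fc receptor for IgM, was at 2.01, 3.69 and 0 against 19.6, 24 and 25.7 CPM (-3.11 ± 0.57), and the adaptor Blnk was at 5.36, 10.3 and 4.83 against 44.6, 33.1 and 34.9 CPM (-2.31 ± 0.43). Cd79a, a chain of the B cell receptor, was lower as well (-2.45). The isotype control held 0 and 3 CPM of Fcmr and Blnk, where the plain values of spleen were 0 to 3.53 and 2.57 to 9.88 CPM. With library totals alone, or without spleen replicate 1, none of the B cell genes was higher, and 7 and 3 were lower.

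Antibody genes were lower in spleen. Of 19 tested plasma cell and constant region genes, 10 were lower (52.6% against 22.6%) and none higher, with a median of -1.33, and 6 to 11 were lower when 1 library was left out. Igha, the constant region of IgA, was at 24.1, 16.2 and 11.3 CPM in spleen and 610, 651 and 846 CPM in the node (-5.32 ± 0.42, adjusted p = 0.000278). The groups did not come close, and the isotype control was at 1.2 CPM. Ighg1 (-2.95 ± 0.52), Ighg2b (-3.43 ± 0.62) and Ighg3 (-3.33 ± 0.56) were lower by similar amounts. Igkc, the kappa light chain, was at 22.1, 25.2 and 27.4 against 77.6, 70.7 and 84.4 CPM (-1.65 ± 0.35), and Ighm was lower by 1.18 in log2 units. Against the ileal node, Igha differed by -6.00 and Ighg1 by -6.80.

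Genes of the marginal zone, a B cell region of the spleen alone, did not mark the spleen as a group. Of 16 tested, 2 were higher and 2 lower (12.5% each, below the 24.8% and 22.6% of all genes). With library totals alone 1 was higher and 6 were lower. Plac8, a small cysteine-rich protein of myeloid cells and marginal zone B cells, was at 22.1, 18.4 and 29 CPM in spleen and 0.466, 3.23 and 1.09 CPM in the node (3.90 ± 0.66, adjusted p = 0.00164), with 3.8 CPM in the isotype control, within the node's range on plain totals. Hes1, a target of Notch signalling, was at 588, 366 and 478 against 133, 135 and 136 CPM (1.83 ± 0.33, adjusted p = 0.00216), with 4.4 CPM in the isotype control, below the node. Both separated the groups. Hes1 did not pass with library totals alone. Notch2, the receptor that marginal zone B cells need, was lower at 3.35, 2.5 and 1.61 against 9.16, 7.92 and 9.28 CPM (-1.75 ± 0.53), a call that ended when any ceco-colonic library was left out.

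Interferon-stimulated genes moved both ways. Of 22 tested, 4 were higher (18.2%) and 3 lower (13.6%), below both shares of all genes. Ifit1, an inhibitor of viral RNA translation, was at 149, 85.2 and 195 CPM in spleen and 24.7, 27.6 and 39.3 CPM in the node (2.22 ± 0.42). Its 137 CPM in the isotype control lay above the plain values of spleen (81.6 to 104 CPM) and node (37.9 to 51.4 CPM). For all 4 higher genes the isotype level was above every node library, as for 74.9% of all genes higher in spleen. With library totals alone none of the interferon-stimulated genes was higher and 5 were lower. Among 15 tested immediate early genes, 6 were lower (40% against 22.6%) and 2 higher, with none higher on library totals. Junb, an AP-1 subunit, was at 13.4, 25.4 and 8.06 against 83.4, 66.9 and 91.7 CPM (-2.25 ± 0.44), and Klf2, a factor of quiescent lymphocytes and endothelium, was lower by 2.21 ± 0.47 in log2 units. Of 19 tested antioxidant genes, 8 were lower (42.1% against 22.6%) and none higher, and 3 to 11 were lower when 1 library was left out. Txn1, thioredoxin, was at 36.2, 79.2 and 45.1 CPM against 527, 472 and 395 CPM (-3.09 ± 0.40), and the metallothionein Mt1 was lower by 3.32 ± 0.45. Of 78 tested cytosolic ribosomal protein genes, 21 were lower (26.9% against 22.6% of all genes) and 1 higher (1.28% against 24.8%). The number lower ran from 3 without spleen replicate 1 to 61 without spleen replicate 2.

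Genes outside the lists were also among the largest differences. H2ac23, a replication-dependent histone gene whose mRNA is normally not polyadenylated, was at 39.5, 47.6 and 93.4 CPM in spleen and without a count in the node, at least 271-fold higher, with 5.6 CPM in the isotype control. Mylk3, a myosin light chain kinase, was at 24.8, 33.6 and 32.2 CPM in spleen, with 2 counts over the node libraries and 0.2 CPM in the isotype control. In the other direction, Il22ra2, the soluble decoy receptor for interleukin-22, was at 10.4, 26.1 and 13.4 CPM in the node and had 1 count over the spleen libraries. Its 6.2 CPM in the isotype control lay above spleen (0 to 0.104 CPM) and below the node (16 to 37.5 CPM) on plain totals. Lyz1, the lysozyme of Paneth cells and some macrophages, was at 22.8, 78.3 and 34.9 CPM in the node and 2.68, 0.109 and 0 CPM in spleen (-6.19, adjusted p = 0.00141). Its near-identical neighbour Lyz2 may share its reads. Clec10a, a galactose-type lectin of macrophages and dendritic cells, was at 3.35, 1.74 and 8.06 CPM in spleen and 107, 93.6 and 71 CPM in the node (-4.82 ± 0.58, adjusted p = 0.000813). Cdkn2a, the cell cycle inhibitor locus, was at 15.1, 16.4 and 12.8 CPM in the node and 0.67, 0.434 and 0 CPM in spleen (-4.97 ± 0.66). None of these 6 genes overlapped between the groups.

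**Figure D4:**
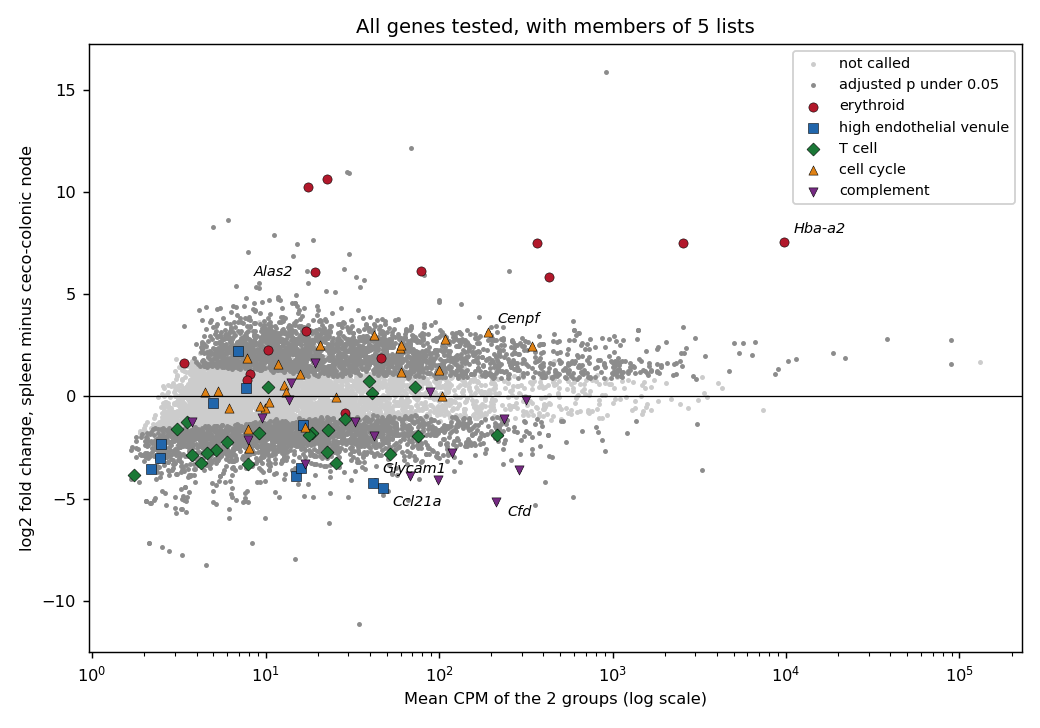
Log2 fold change, spleen minus ceco-colonic node, against the mean CPM of the 2 groups (log axis) for the 9547 genes tested; dark grey points passed an adjusted p of 0.05, and coloured symbols are members of 5 gene lists. Erythroid genes lie mostly above 0, with Hba-a2 at 7.55 (fitted values of genes with no count in the node are no bound), and venule, T cell and complement genes lie mostly below 0.

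The leading differences were also seen against the ileal node, whose 3 libraries were deeper at 18811426 to 31849143 counts, though the spleen libraries are shared and the comparisons are not independent. There, 7978 of 13551 tested genes (58.9%) were called, 3737 higher in spleen and 4241 lower. Hba-a2 differed by 7.55 from the ceco-colonic and 7.43 from the ileal node, Alas2 by 6.09 and 6.34, and S100a9 by 6.95 and 6.92. On the other side, Dcn differed by -5.08 and -5.76, Ccl21a by -4.48 and -4.73, and Ftl1 by -2.81 and -2.82. The levels in the 2 nodes come from fits scaled separately and were not tested against each other. C1qc was at 342 ± 57 CPM (SD, n = 3) in the ileal node against 66.9 ± 6.09 in the ceco-colonic and 17 ± 13.5 in spleen. H2-Aa was at 518 ± 191, 106 ± 8.04 and 16.6 ± 2.49 CPM in the same order. Cd5l was higher in the ileal node than in spleen (-1.45, adjusted p = 0.0382), at 128 ± 18.9 CPM against 38.8 ± 29.6, while its difference from the ceco-colonic node did not pass. Cd68 (-3.27, adjusted p = 0.0025), Adgre1 (-1.94, adjusted p = 0.039) and Csf1r (-1.22, adjusted p = 0.0349) were also lower in spleen than in the ileal node, while Marco did not pass (-1.66). Of 20 tested sinus and marginal zone macrophage genes, 14 were lower and 1 higher. Of 20 tested red pulp macrophage genes, 10 were lower and 3 higher, where 31.3% of all genes were lower and 27.6% higher.

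**Figure D5:**
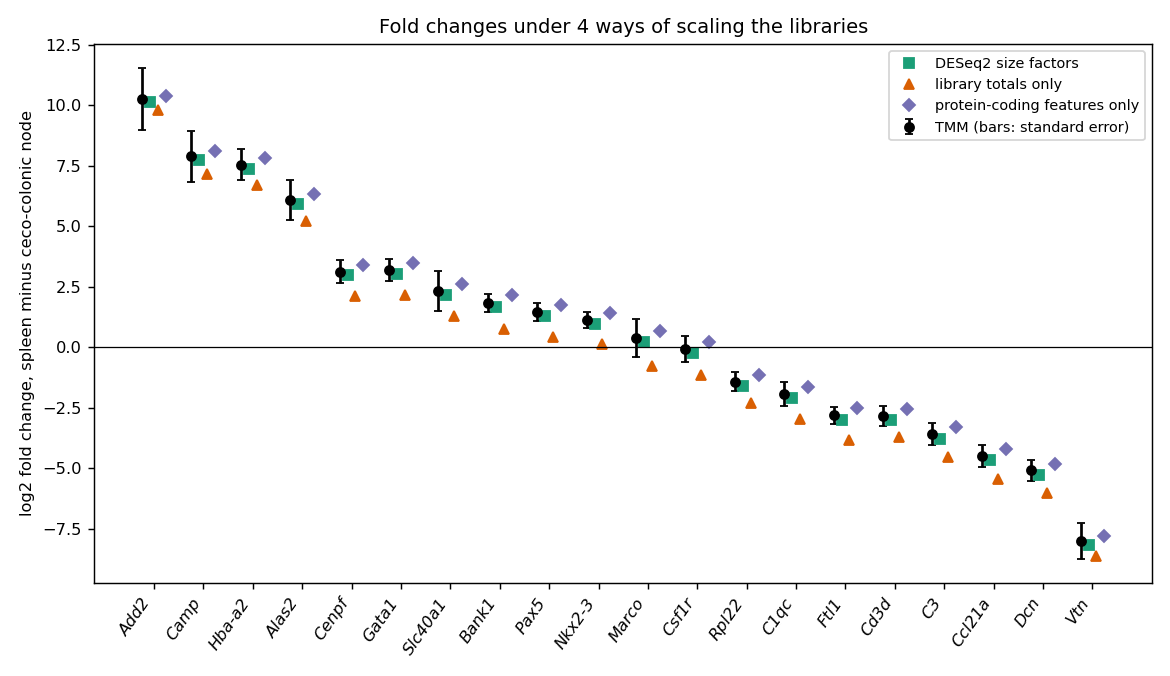
Log2 fold change, spleen minus ceco-colonic node, of 20 genes with TMM factors (circles with standard errors), DESeq2 size factors (squares), library totals only (triangles) and TMM on protein-coding features only (diamonds). Library totals place every gene shown lower than TMM does, which turns Marco to -0.76 and brings Nkx2-3 to 0.13, while red cell genes stay high and stroma genes low under each scaling shown.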

How the data were processed

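Ribosome-bound RNA was recovered by RiboTag immunoprecipitation, purified with a PicoPure kit and sequenced from polyadenylated RNA, per the labels' protocols. The authors deposited estimated counts as a single table, which covers 56351 genes and 37 libraries and whose library totals differ. The submitters' processing notes name kallisto, limma and edgeR, with no role or version, and GRCm39 and mm10 are both named, so no coordinates were taken from the table. The strand setting of the counting is not given in the sources used here. Counts were rounded to whole numbers, since 67.2% of values were whole at a tolerance of 1e-09.

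The 6 libraries were fitted with edgeR 4.0.16 in R 4.3.3 (filterByExpr, TMM factors, robust quasi-likelihood test, 1 mean per group), with Benjamini-Hochberg adjustment over all genes tested and a threshold of 0.05. The fit with the ileal node added those 3 libraries. CPM values use the TMM-scaled totals of the fit, and those of the isotype control use its plain total. Standard errors are the absolute log2 fold change over the square root of the F statistic. Group floors are 3 counts over the pooled libraries. Ratios of pooled counts carry exact 95% intervals that cover counting error only. Gene classes come from GENCODE M21, which matched 91.4% of table rows.

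Named genes were Siglec1, Rpl22, Cd68, Adgre1, Csf1r and Marco; up to 15 genes per direction with the largest fold change among called, non-overlapping genes at 10 CPM or more, leaving out predicted genes, receptor segments, genes without a symbol and genes of neighbouring organs; and per list up to 6 members with the smallest p plus defining markers near 0. Other names in the text were chosen after their values were seen. The lists and members were chosen with earlier results of these data known. Alternatives were other scalings, filters, tools (DESeq2 1.42.0, limma 3.58.1), sample sets, the replicate block and leaving out each library; the fit on protein-coding features was added after seeing the data. Same-numbered libraries did not deviate together (correlations of -0.063, -0.023 and 0.064).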

Additional observations from a re-analysis of the deposited data

How the results depend on the processing

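The number of genes called between spleen and ceco-colonic node, 4532, was 2750 with at least 50 counts in 3 libraries, where 4462 genes were tested. Leaving out 1 library gave 2504 to 4913: 2682, 2504 and 2946 without ceco-colonic replicates 1, 2 and 3, and 2699 without spleen replicate 1. It was 3431 on protein-coding features alone, where 8098 genes were tested, and 3818 to 6213 under the other alternatives, of which 6213 came from the fit of all libraries with 1000000 counts or more, in which 1978 genes were higher and 4235 lower. With the replicate number as a block, 3834 genes were called, 3717 of them among the 4532. The share of called genes that were higher was 52.3% with TMM, 44.8% with DESeq2 size factors, 41.4% in the fit of all 36 libraries, 31.8% in the fit of deeper libraries and 16.2% with library totals alone. The number called against the ileal node, 7978, stayed between 6298 and 10326.

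Of the named genes, 28 lost their call with library totals alone and 33 without spleen replicate 1, and none did without globin and immunoglobulin genes or without the ribosomal sequence features. The sign turned for genes that passed in neither direction. Csf1r was at 0.07 with at least 50 counts, 0.24 on protein-coding features, 0.13 without spleen replicate 2 and 0.00 without spleen replicate 3, in a leave-one-out range of -1.11 to 0.13. Marco was at -0.76 with library totals, -0.20 with limma voom, -0.16 in the fit of deeper libraries, -0.20 with the replicate block and -1.29 without spleen replicate 1, in a leave-one-out range that reached 1.05. With library totals, Eomes was at -0.36, Klre1 at -0.24, Meis1 at -0.54, Hoxa7 at -0.02 and Cxcl12 at -0.66. In the fit of deeper libraries Meis1 was at -0.11 and Cxcl12 at -0.27. Cxcr2 was at 0.05 without ceco-colonic replicate 2 (leave-one-out range from -0.94) and 0.13 on protein-coding features. Where an alternative tests fewer genes or libraries, that is its construction; otherwise the cause was not tested. Depth limits what could be tested, since 3 counts in spleen replicate 3 equal 4.83 CPM.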
